A study of Mus musculus with 6 samples.

Results

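The 10 genes described here are the liver genes of glucose synthesis and of the Foxo pathway in the study of mice that lack the kinase Lkb1 in hepatocytes. They are 4 gluconeogenic enzymes (G6pc, Pck1, Fbp1 and Pcx), the transcription factors Foxo1 and Foxo3 with the coactivator Ppargc1a, and 3 genes known as Foxo targets (Igfbp1, Irs2 and Pdk4). They were chosen by name, as the rows of the array values annotated with 1 of these gene symbols, and the brightest probe set stood for each gene. All 10 were measured, of 19938 genes in the whole series. The mutants (Lkb1KOlivad, KO, mice B253, B304 and B305) carried Lkb1 fl/fl;TTR-CreTam, a floxed Lkb1 gene with a tamoxifen-inducible Cre driven in hepatocytes by the transthyretin promoter. The controls (WT, mice B256, B267 and B302) carried Lkb1 fl/fl without the Cre. Both groups were floxed, and according to the study's methods both were adult, received tamoxifen and were fasted, which the sample labels do not state. The labels give 3 KO and 3 WT livers, all from females, with 1 array per mouse and no pooled RNA. The Cre is thus directed to hepatocytes by its promoter, while the RNA came from the whole liver, in which fewer cells of a type and less RNA per cell cannot be told apart.

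Gluconeogenesis is the making of new glucose from lactate, glycerol and amino acids, by which the liver feeds the blood during fasting. The enzymes that pull carbon past the irreversible steps of glycolysis are controlled in large part at transcription. Glucagon acts through cAMP, Creb and its coactivator Crtc2, glucocorticoids through their receptor, and insulin acts against both: it activates Akt, which phosphorylates the Foxo factors and drives them out of the nucleus. Ppargc1a is induced by fasting and coactivates Foxo1 and Hnf4a. Lkb1 is the kinase upstream of Ampk and of the salt-inducible kinases, which hold Crtc2 in the cytoplasm.

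The promoters of 4 members are shown, as examples of windows that hold short matches to motifs of Foxo proteins or Creb. Each window runs from 250 bases before to 50 bases after the start site, on the gene's strand and 5′ to 3′, from the RefSeq annotation of build GRCm38.p6. Capitals mark matches, on either strand, to TNTTTTG (the core of insulin response elements, where Foxo proteins bind, N being any base) and to TGACG (the core of the cAMP response element, where Creb binds). G6pc lies at chr11:101367466-101367765 on the plus strand, Igfbp1 at chr11:7197537-7197836 on the plus strand, Pck1 at chr2:173152823-173153122 on the plus strand and Ppargc1a at chr5:51567676-51567975 on the minus strand, at a start site inside the annotated gene.
G6pc: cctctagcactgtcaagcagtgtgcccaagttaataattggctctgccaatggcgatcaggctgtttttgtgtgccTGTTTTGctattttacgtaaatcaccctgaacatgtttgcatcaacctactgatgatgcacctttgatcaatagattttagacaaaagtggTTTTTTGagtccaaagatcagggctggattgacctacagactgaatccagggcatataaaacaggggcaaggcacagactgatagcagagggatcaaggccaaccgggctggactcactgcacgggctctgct
Igfbp1: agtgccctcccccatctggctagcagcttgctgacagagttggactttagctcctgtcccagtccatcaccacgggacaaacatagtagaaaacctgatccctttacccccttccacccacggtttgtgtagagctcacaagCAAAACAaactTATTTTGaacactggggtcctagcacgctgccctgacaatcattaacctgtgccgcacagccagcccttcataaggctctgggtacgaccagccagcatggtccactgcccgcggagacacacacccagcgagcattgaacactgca
Pck1: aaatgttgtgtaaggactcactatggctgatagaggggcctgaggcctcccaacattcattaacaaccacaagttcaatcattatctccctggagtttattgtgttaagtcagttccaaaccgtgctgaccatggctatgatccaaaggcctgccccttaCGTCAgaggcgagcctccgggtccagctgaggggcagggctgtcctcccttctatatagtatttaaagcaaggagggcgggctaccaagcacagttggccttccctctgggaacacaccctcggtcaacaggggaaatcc
Ppargc1a: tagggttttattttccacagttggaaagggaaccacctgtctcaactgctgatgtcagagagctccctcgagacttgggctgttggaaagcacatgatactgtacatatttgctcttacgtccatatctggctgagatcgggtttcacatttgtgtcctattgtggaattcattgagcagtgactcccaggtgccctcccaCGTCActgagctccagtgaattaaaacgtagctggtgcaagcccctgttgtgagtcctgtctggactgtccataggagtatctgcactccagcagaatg

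The insulin response core lay at -174 and -83 of the G6pc start site (first base of the match) and at -108 and -97 of the Igfbp1 start site, the first of the Igfbp1 pair on the other strand. Irs2 had a single match at -37. The cAMP response core, on the other strand each time, lay at -90 in Pck1, at -49 in Ppargc1a and at -64 in Foxo3. All 10 members had a window in the annotation, Pcx 2 of them. The windows of Fbp1, Pcx, Foxo1 and Pdk4 held neither motif, and the longer forkhead core TGTTTAC was in none of the 11 windows. These motifs are common: of 32851 promoter windows of this length, 18.6% held TNTTTTG, 20.8% held TGACG and 3.65% held TGTTTAC. A match says only that these letters are present.

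**Figure D1:**
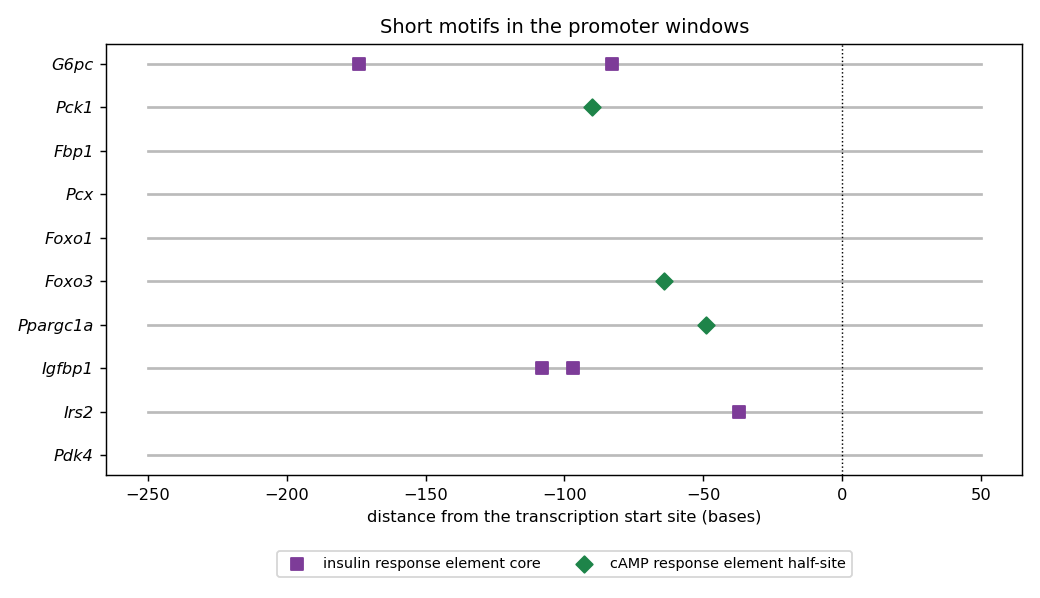
Each row is the promoter window of 1 member, with the distance from the transcription start site in bases along the axis (dotted line, the start site). Squares are the first bases of insulin response cores and diamonds those of cAMP response cores. G6pc and Igfbp1 each hold 2 squares, and Pck1, Ppargc1a and Foxo3 each hold 1 diamond.

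The values are log2 signals, so that a difference of 1 is a doubling. Stk11, the gene of Lkb1, had log2 signals of 6.52, 6.42 and 6.48 in the KO livers, against 8.24, 8.13 and 7.96 in the WT livers. It was lower in KO (log2 fold change -1.64, standard error 0.12, adjusted p = 0.00705 in limma) and was the 1 gene of 19938 to pass an adjusted p under 0.05. The array medians lay between 5.03 and 5.08. Of 12 hepatocyte markers 11 were measured, with log2 signals of 9.43 or more on every array and a median log2 fold change of 0.02. Marker lists of other liver cell types had median log2 fold changes of -0.17 for stellate cells, -0.22 for sinusoidal endothelium and -0.16 for Kupffer cells. With the mouse series as a block these were -0.115, -0.149 and -0.02, and without WT B256 the sinusoidal median was -0.06. With all mice and no block, the medians were -0.22 for lymphocytes, 0.02 for biliary cells and 0.08 for neutrophils. Of these genes 0 passed the adjusted threshold. At an unadjusted p under 0.05, 3 were lower and 1 was higher, where 1.51% and 1.52% of all genes were. Nothing in the labels says whether the mice shared a litter. The mouse numbers fall in the two-hundreds (KO B253, WT B256 and B267) and in the three-hundreds (KO B304 and B305, WT B302), so that differences can also be taken within each of these series.

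Of the 10 members, 0 passed an adjusted p under 0.05, where 0.00502% of all genes did. G6pc alone was higher in KO at an unadjusted p under 0.05, so 1 of 10 where 1.52% of all genes were, and 0 members were lower, where 1.51% of all genes were. G6pc was also the only member whose 3 KO livers all lay above the 3 WT livers, against 3.46% of all genes, and 0 members had all KO livers below, against 3.7%. The log2 fold change was above 0 for 6 members and below 0 for 4. Their median was 0.22, where the median of all genes was 0.01, but it was 0.04 without KO B253 and 0.05 without WT B267. Every member had an adjusted p of 0.9997 in limma, so that at this size of experiment none of the differences given below can be told from the spread between mice.

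**Figure D2:**
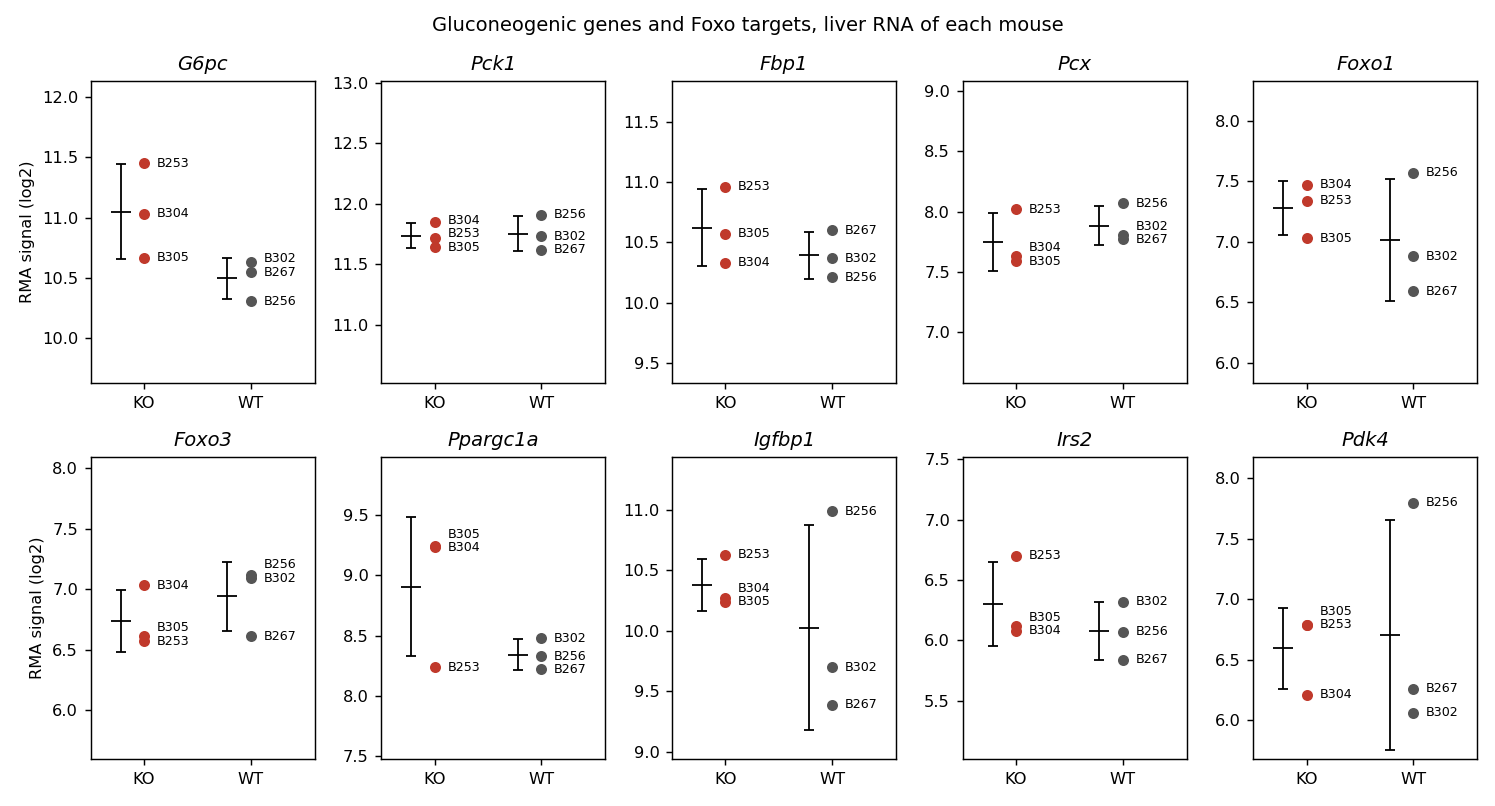
Each panel shows the log2 RMA signal of 1 member, with 1 point per mouse (KO left, WT right) and beside the points the mean and SD of the 3 mice. The panels span the same number of log2 units at different levels. G6pc is the 1 panel in which all KO points lie above all WT points, and WT mouse B256 is the highest point in 6 panels.

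G6pc, the catalytic subunit of glucose-6-phosphatase, which releases free glucose in the last step of gluconeogenesis and of glycogen breakdown, had the clearest difference among the enzymes. Its log2 signals (chr11:101367716-101377903) were 11.45, 11.03 and 10.67 in the KO livers, against 10.31, 10.55 and 10.63 in the WT livers. The groups did not overlap, but KO B305 lay only 0.05 above the highest WT liver. The means were 11.05 ± 0.39 in KO and 10.5 ± 0.17 in WT (SD, n = 3 each), a fold change of 1.47 with a 95% interval of 1.08 to 2.0 (unadjusted p = 0.0197, adjusted p = 0.9997 in limma). By exact permutation (two-sided), p was 0.1, and 3 against 3 mice cannot give a smaller one. The gap was unequal between the series of mice: the log2 difference was 1.02 among the mice of the two-hundreds and 0.23 among those of the three-hundreds. Without KO B253 the log2 fold change was 0.36 (unadjusted p = 0.0668 in limma), without WT B256 it was 0.46 (unadjusted p = 0.0664), and without KO B305 it was 0.75. In size it ranked 158 among all genes, and 0.787% of them had a larger change.

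Pck1, the phosphoenolpyruvate carboxykinase that turns oxaloacetate into phosphoenolpyruvate, had nearly equal means in both groups. Its log2 signals (chr2:173153073-173159274) were 11.72, 11.85 and 11.64 in the KO livers, against 11.91, 11.62 and 11.73 in the WT livers. The highest and the lowest liver were both WT. The fold change was 0.988 with a 95% interval of 0.811 to 1.2, and the exact permutation p was 0.9. Pck1 was also the steadiest member between mice: its residual SD of 0.13 exceeded that of 29.2% of all genes.

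Fbp1, fructose-1,6-bisphosphatase, had log2 signals (chr13:62864753-62888298) of 10.96, 10.33 and 10.57 in the KO livers, against 10.21, 10.6 and 10.37 in the WT livers. KO B253 was the highest of the 6 livers, as it was for G6pc, and the other KO livers lay among the WT livers. The fold change was 1.17 (95% interval 0.881 to 1.55), and without KO B253 the log2 fold change was 0.06, against 0.23 with all mice. Pcx, pyruvate carboxylase, which makes oxaloacetate from pyruvate in mitochondria, had log2 signals (chr19:4510472-4621752) of 8.02, 7.63 and 7.59 in the KO livers, against 8.07, 7.77 and 7.81 in the WT livers. Here KO B304 and B305 were the lowest livers, while KO B253 was close to the highest, WT B256. The fold change of Pcx was 0.91 (95% interval 0.715 to 1.16), and its log2 difference was 0.1 within the two-hundreds and -0.2 within the three-hundreds. The log2 fold change of -0.14 was -0.05 with the mouse series as a block, -0.27 without KO B253 and -0.04 without WT B256.

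**Figure D3:**
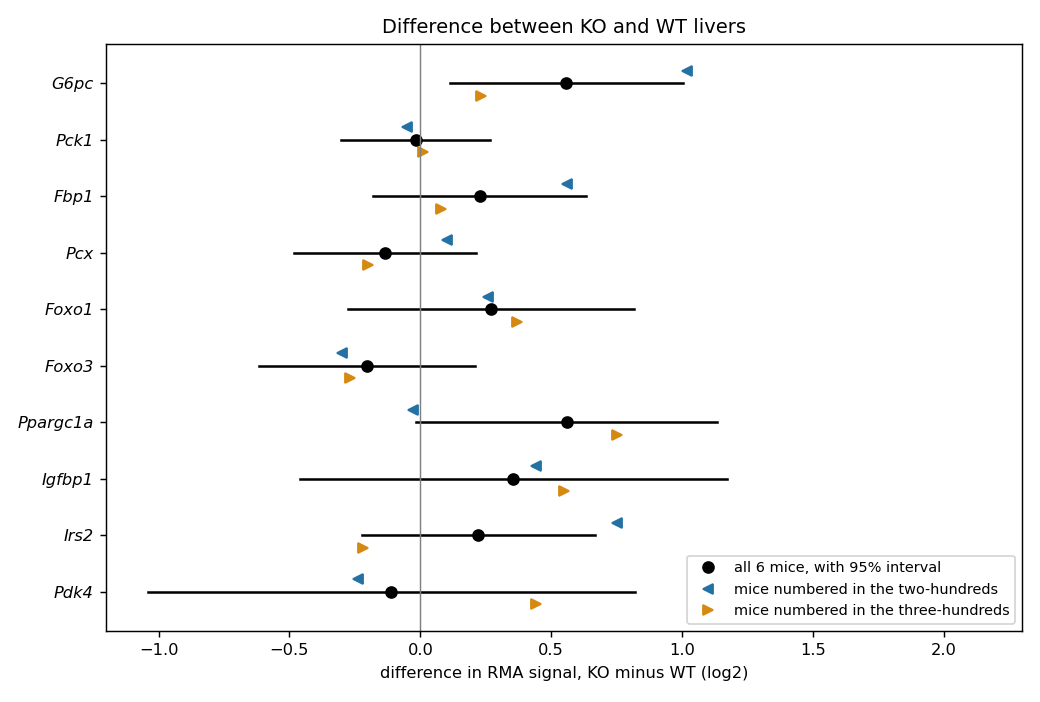
Points are the log2 difference of KO minus WT for each member over all 6 mice, with the 95% interval from limma. Triangles are the differences within the mice numbered in the two-hundreds (left-pointing, 1 KO against 2 WT) and in the three-hundreds (right-pointing, 2 KO against 1 WT). The interval of G6pc alone lies above 0, and the triangles of G6pc, Ppargc1a, Irs2 and Pdk4 lie far apart.

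Of the Foxo factors, which carry the insulin signal to these promoters, neither passed the test. Foxo1, the main Foxo of liver glucose control, had log2 signals (chr3:52268337-52350109) of 7.34, 7.47 and 7.03 in the KO livers, against 7.57, 6.59 and 6.88 in the WT livers. All KO livers lay above 2 of the WT livers, and WT B256 lay above all of them. The fold change was 1.21 (95% interval 0.825 to 1.76), with a log2 fold change of 0.55 without WT B256 (unadjusted p = 0.0139, adjusted p = 0.999 in limma) and of 0.06 without WT B267. Foxo3 had log2 signals (chr10:42181845-42276695) of 6.57, 7.03 and 6.61 in the KO livers, against 7.12, 6.61 and 7.09 in the WT livers. The groups overlapped, with a fold change of 0.869 (95% interval 0.653 to 1.16), and the log2 difference was -0.3 within the two-hundreds and -0.27 within the three-hundreds. The log2 fold change of -0.2 was -0.37 without WT B267 and -0.11 without WT B256. The Foxo proteins are regulated by phosphorylation and localization, which these arrays do not measure.

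Ppargc1a, the coactivator known as PGC-1alpha, had the same fold change as G6pc, but from partly other mice. KO B304 and B305 lay above all WT livers for both genes (B305 by only 0.05 for G6pc), and KO B253 only for G6pc. Its log2 signals (chr5:51454249-52115853) were 8.24, 9.23 and 9.24 in the KO livers, against 8.33, 8.22 and 8.48 in the WT livers. KO B304 and B305 lay above all WT livers, whereas KO B253, the highest for G6pc, lay within the WT range. The means were 8.9 ± 0.57 in KO and 8.34 ± 0.13 in WT (SD, n = 3 each), a fold change of 1.47 with a 95% interval of 0.99 to 2.19 (unadjusted p = 0.055, adjusted p = 0.9997 in limma, exact permutation p = 0.3). The log2 difference was -0.03 within the two-hundreds and 0.75 within the three-hundreds. Without KO B253 it was 0.89 (unadjusted p = 0.000238, adjusted p = 0.8152 in limma). B253 is the only KO mouse of the two-hundreds, so that fit partly mixes genotype with mouse series. Without KO B304 it was 0.4, and without KO B305 it was 0.39.

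A second, dimmer probe set of Ppargc1a showed the mouse series more than the genotype. Its log2 signals were 6.54, 7.55 and 7.89 in the KO livers, against 6.53, 6.43 and 7.55 in the WT livers. WT B302 was level with KO B304 and below KO B305 there, and all mice of the two-hundreds were lower than these 3. The log2 difference was 0.49 over all mice, 0.06 within the two-hundreds and 0.17 within the three-hundreds, so that the 2 probe sets disagreed on WT B302. With the mouse series as a block, the log2 fold change of the brighter probe set was 0.36 (unadjusted p = 0.0819 in limma). The part of the mouse series in this difference was not tested further.

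Of the Foxo targets, 0 of 3 passed the test, and in 2 of them WT B256 set the spread. Igfbp1, a secreted binding protein of insulin-like growth factors that insulin represses through the element shown above, had log2 signals (chr11:7197787-7202546) of 10.63, 10.27 and 10.24 in the KO livers, against 10.99, 9.39 and 9.7 in the WT livers. All KO livers lay above WT B267 and B302, and all lay below WT B256. The means were 10.38 ± 0.22 in KO and 10.03 ± 0.85 in WT (SD, n = 3 each), a fold change of 1.28 with a 95% interval of 0.726 to 2.25. The log2 difference was similar within the mouse series, 0.44 in the two-hundreds and 0.55 in the three-hundreds. It was 0.84 without WT B256 (unadjusted p = 0.00145, adjusted p = 0.9054 in limma) and 0.04 without WT B267, so the sign held while the size rested on single WT livers.

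Irs2, the adaptor that links the insulin receptor to the phosphatidylinositol kinase, had log2 signals (chr8:10984681-11008929) of 6.7, 6.08 and 6.12 in the KO livers, against 6.07, 5.84 and 6.32 in the WT livers. KO B253 was again the highest liver and the other KO livers lay among the WT livers. The fold change was 1.17 (95% interval 0.857 to 1.59), with a log2 difference of 0.75 within the two-hundreds and -0.22 within the three-hundreds. Without KO B253 the log2 fold change was 0.02, against 0.22 with all mice. Pdk4, the kinase that inhibits pyruvate dehydrogenase and so spares pyruvate in fasting, had log2 signals (chr6:5483351-5496278) of 6.79, 6.21 and 6.79 in the KO livers, against 7.8, 6.26 and 6.06 in the WT livers. WT B256 stood 1 log2 unit above every other liver. The fold change was 0.925 (95% interval 0.486 to 1.76), the widest on the log2 scale among the members. The log2 fold change was 0.43 without WT B256 and -0.43 without WT B302. Within the two-hundreds the log2 difference was -0.24, and within the three-hundreds it was 0.44.

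The members varied more between mice of the same genotype than most genes. Their residual SD had a median of 0.3 log2 units, against 0.17 for all genes, and 9 of the 10 members lay above that median. All genes here include dim ones, whereas every signal of the members lay above the array medians of 5.03 to 5.08. A comparison with genes of like signal was not made. Pdk4 was more variable than 99.4% and Igfbp1 than 99.0% of all genes. The variation followed single mice: WT B256 was the highest of the 6 livers for 6 members, KO B253 for 3 and KO B305 for 1, while WT B267 was the lowest for 5. Averaged over the 10 members and set against the WT mean, the log2 levels were 0.28, 0.15 and 0.09 in KO B253, B304 and B305, against 0.27, -0.22 and -0.06 in WT B256, B267 and B302. One WT liver was thus as high as the highest KO liver.

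Genes that fasting, feeding and glucocorticoids are known to induce were set beside the members, since they respond to the same hormones. The 13 measured fasting-induced genes averaged 0.11, -0.07 and 0.02 log2 units from the WT mean in KO B253, B304 and B305, against 0.25, -0.12 and -0.13 in WT B256, B267 and B302. The 9 glucocorticoid-induced genes averaged 0.14, 0.2 and -0.02 in the same KO livers, against 0.3, -0.3 and -0.01 in the WT livers. In both lists WT B256 was the highest liver, as it was in most members, and in the glucocorticoid list WT B267 was the lowest. WT B256 was also the highest liver in the hepatocyte (0.2), sinusoidal endothelial (0.24), Kupffer cell (0.25), stellate cell (0.07) and clock gene (0.16) lists. It was not the highest in the lymphocyte, neutrophil or biliary lists, nor in lists of adipose (-0.06) and pancreas (-0.06) markers. The lists were not chosen to be free of genes that these hormones induce, and Per1 is in both the clock and glucocorticoid lists. The reason for the level of WT B256 was not tested. The 11 feeding-induced genes averaged 0.02, -0.4 and -0.37 in the KO livers, against 0.0, 0.33 and -0.33 in the WT livers. Here WT B267 was the highest, and all mice of the three-hundreds were low whatever their genotype. The part of these differences between mice in the members' values was not tested.

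**Figure D4:**
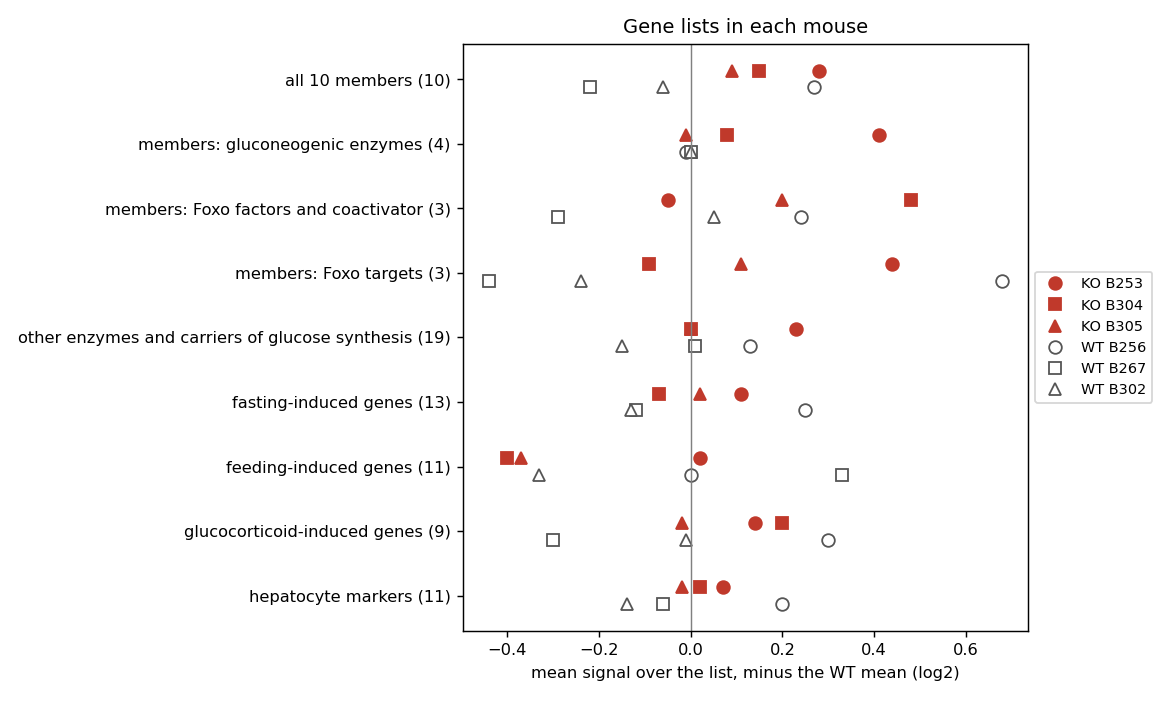
Each row is a gene list (its count of genes in brackets), and each point is the mean log2 signal of the list in 1 mouse minus the WT mean (filled, KO; open, WT). WT B256 lies right of the other WT mice for the members (0.27), the Foxo targets, the fasting-induced genes (0.25) and the glucocorticoid-induced genes (0.3). It does so for the hepatocyte markers too (0.2).

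Of the other genes of the pathway, 0 passed an adjusted p under 0.05. Of 25 listed enzymes and carriers of glucose synthesis 19 were measured, and 0 passed an unadjusted p under 0.05 in either direction. Their log2 fold changes ran from -0.15 to 0.38 with a median of 0.07, 13 above 0. The median was -0.02 without KO B253. Got1, the cytosolic aspartate aminotransferase, had log2 signals of 12.13, 12.08 and 12.18 in the KO livers, against 12.27, 11.26 and 11.74 in the WT livers. The KO livers were close together within the WT range, and the fold change was 1.3 (95% interval 0.91 to 1.85). The log2 fold change of 0.37 was 0.13 without WT B267 and 0.63 without WT B256.

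Of 26 other Foxo targets 25 were measured, and their median log2 fold change was 0.02. At an unadjusted p under 0.05, 1 was higher and 0 were lower, where 1.52% and 1.51% of all genes were. The higher one was Bcl6, a transcriptional repressor, with log2 signals of 7.58, 8.12 and 6.08 in the KO livers, against 5.79, 6.52 and 5.82 in the WT livers. KO B253 and B304 lay above all WT livers and KO B305 lay among them, giving a fold change of 2.32 with a 95% interval of 1.13 to 4.78 (unadjusted p = 0.0267, adjusted p = 0.9997 in limma, exact permutation p = 0.2). The log2 fold change of 1.22 was 0.79 without KO B304. Tat, tyrosine aminotransferase, had log2 signals of 12.42, 12.5 and 12.36 in the KO livers, against 12.62, 11.98 and 12.16 in the WT livers. As for Got1 and Igfbp1, the KO livers lay between WT B256 and the other WT livers, and the log2 fold change of 0.17 was 0.04 without WT B267 and 0.36 without WT B256.

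Etnppl and Mmd2 were measured in the study by RT-qPCR beside members of the group, and both overlapped between genotypes on the arrays. Etnppl, which breaks down phosphoethanolamine, had log2 signals of 9.41, 9.95 and 9.2 in the KO livers, against 9.69, 8.42 and 9.26 in the WT livers, a fold change of 1.32 (95% interval 0.806 to 2.16). Its log2 fold change of 0.4 was 0.05 without WT B267 and 0.69 without WT B256. Mmd2 had log2 signals of 9.15, 8.44 and 8.46 in the KO livers, against 8.61, 8.54 and 7.43 in the WT livers, a fold change of 1.41 (95% interval 0.847 to 2.33). For Mmd2 the log2 difference was 0.58 within the two-hundreds and 1.02 within the three-hundreds, and with the mouse series as a block it was 0.8 (unadjusted p = 0.000425, adjusted p = 0.4933 in limma). These values lean on WT B302, the lowest liver and the only WT of its series, without which the log2 fold change was 0.11, against 0.49 with all mice.

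Between the insulin receptor and the Foxo factors, 17 of 18 listed genes were measured. At an unadjusted p under 0.05, 1 was higher and 1 lower, where 1.52% and 1.51% of all genes were. Pik3r1, the regulatory subunit of the phosphatidylinositol kinase, had log2 signals of 9.28, 9.69 and 9.86 in the KO livers, against 10.01, 10.14 and 9.88 in the WT livers. All KO livers lay below all WT livers, by a fold change of 0.759 (95% interval 0.586 to 0.982, unadjusted p = 0.0385 and adjusted p = 0.9997 in limma), but KO B305 was only just below WT B302. The log2 difference was -0.79 within the two-hundreds and -0.1 within the three-hundreds, and the log2 fold change was -0.24 without KO B253, against -0.4 with all mice. Ptpn1, a phosphatase that dephosphorylates the insulin receptor, had log2 signals of 5.75, 5.53 and 5.75 in the KO livers, against 5.31, 5.49 and 5.4 in the WT livers. All KO livers lay above all WT livers, by a fold change of 1.21 (95% interval 1.0 to 1.46, unadjusted p = 0.0471 and adjusted p = 0.9997 in limma).

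The 21 other transcription regulators of these promoters, among them Crtc2, the salt-inducible kinases and the class IIa deacetylases, were all measured, and 0 passed an unadjusted p under 0.05. Their median log2 fold change was 0.05. Hnf4a, the nuclear receptor that Ppargc1a coactivates, had log2 signals of 10.01, 9.66 and 9.58 in the KO livers, against 10.07, 9.43 and 9.68 in the WT livers, a fold change of 1.01 (95% interval 0.756 to 1.36). The KO livers lay within the range of the WT livers.

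The paralogs of the members had more genes below 0 (11) than above (7). All 18 were on the array, and their median log2 fold change was -0.11 (-0.03 without KO B253 and -0.06 without WT B302). The KO livers lay all below the WT livers in 5 of them, against 3.7% of all genes, and all above in 0, against 3.46%. These 5 were G6pc3, Igfbp7, Foxo4, Foxo6 and Pdk1, and most of the gaps were narrow. The highest KO and lowest WT signals were 6.17 and 6.21 for G6pc3 and 8.21 and 8.26 for Igfbp7. They were 4.84 and 4.87 for Foxo4 and 6.31 and 6.33 for Pdk1. At an unadjusted p under 0.05, 2 were lower and 0 were higher, where 1.51% and 1.52% of all genes were. Foxo6 had log2 signals of 4.6, 4.5 and 4.49 in the KO livers, against 4.75, 4.91 and 4.92 in the WT livers, a fold change of 0.795 (95% interval 0.666 to 0.948, unadjusted p = 0.0166 and adjusted p = 0.9997 in limma). The signals of Foxo6, like those of Foxo4 (4.77 to 5.0), lay below the median of every array. Igfbp3, the main carrier of insulin-like growth factors in blood, had log2 signals of 6.54, 6.43 and 7.08 in the KO livers, against 7.3, 6.93 and 7.29 in the WT livers, a fold change of 0.711 (95% interval 0.528 to 0.958, unadjusted p = 0.0295 and adjusted p = 0.9997 in limma). It ran opposite in sign to Igfbp1, and KO B305 overlapped with the WT livers.

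**Figure D5:**
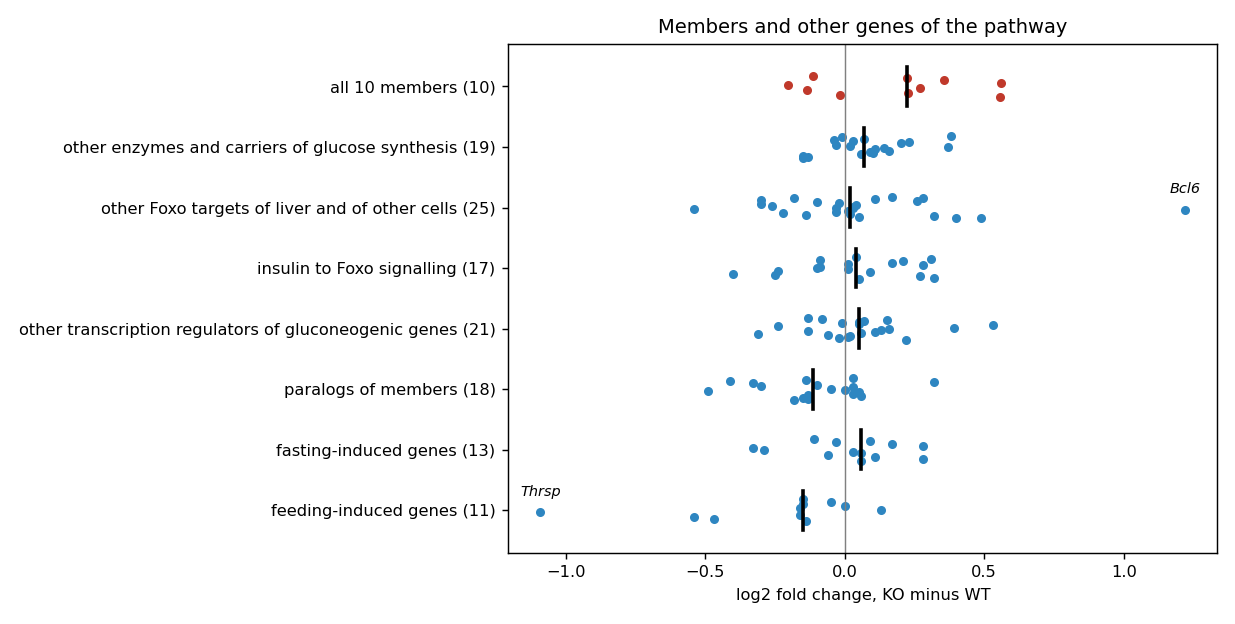
Each point is the log2 fold change (KO minus WT) of 1 gene and each bar the median of its list (count of genes in brackets). Some genes are in more than 1 list. The members have a median of 0.22, the other enzymes and carriers of 0.07 and the paralogs of -0.11, and Bcl6 (1.22) and Thrsp (-1.09) lie farthest out.

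Among genes that are no members, those most like a member across the 6 livers were sought by Pearson's r over 7272 genes, as a description. For G6pc they were Tbccd1 (r = 0.99), Rgs7 (r = 0.989) and Ssna1 (r = 0.96), and for Pck1 they were Nup88 (r = 0.982), Atg4d (r = 0.973) and Spry4 (r = 0.967). For Ppargc1a they were Cyp2c38 (r = 0.988), Gtf2f2 (r = 0.979) and Plcxd3 (r = 0.979), and for Igfbp1 they were Lrrc41 (r = 0.995), Kpna1 (r = 0.989) and Tspyl2 (r = 0.985). The points are 6 livers, and none of these genes belongs to the lists above. With so few points and 7272 genes searched, an r this high can arise by chance, and shared regulation was not tested.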

How the data were processed

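Liver RNA of 3 KO and 3 WT mice was hybridized to Affymetrix mouse gene arrays, 1 per mouse. The deposited values are log2 signals, which the authors made with RMA (background correction, normalization between arrays, summary of probes per probe set). RMA and Partek are named in the submitters' processing notes, Expression Console and BRB-ArrayTools in the methods. Tool versions: not given in the sources used here. Of 35556 probe sets, 21789 had 1 gene symbol in the array annotation, which is of an earlier array generation than the methods name, 1621 had several and 12146 were unnamed. The brightest probe set stood for each of 999 genes with several, leaving 19938 genes with no filter on low signals.

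KO was compared with WT by limma 3.58.1 (lmFit and eBayes, two-sided) in R 4.3.3. P-values were adjusted by Benjamini-Hochberg over all 19938 genes, at a threshold of 0.05. Single genes were also tested by the exact permutation test, whose smallest p is 0.1 for 3 against 3. The limma p-values set each difference against the spread between mice of the same genotype, with each gene's variance drawn toward that of all genes. The procedure was tested on simulated data. Gene positions and promoters came from RefSeq (GRCm38.p6), and Python 3.11.15 with matplotlib 3.10.9 drew the figures.

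The members and the gene lists were chosen with earlier results of these data known. Named were all members, Stk11, listed genes at an unadjusted p under 0.05, the gene of highest signal in 3 lists, Etnppl and Mmd2, and the 3 genes most like each of 4 members among genes with an SD of 0.2 or more. Alternatives were quantile normalization, centring on array medians, leaving out dim genes, the mean of probe sets, array weights, a robust fit with an intensity trend, a t-test per gene, a block for the series of mouse numbers, and leaving out each mouse. The methods name an unpaired t-test for comparisons between groups in general, and BRB-ArrayTools for the arrays. The study's RT-qPCR and protein values were not used.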

Additional observations from a re-analysis of the deposited data

How the results depend on the processing

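No member passed the adjusted threshold under any of the 14 alternatives, and the members other than Pck1 and Pdk4 kept their sign in every fit over both series of mice. When each mouse was left out in turn, the log2 fold change of Pck1 ranged from -0.085 to 0.062 and that of Pdk4 from -0.434 to 0.433, and a block for the series of mouse numbers put Pdk4 at 0.098. The members' median ranged from 0.038 (without KO B253) to 0.326 (without WT B256). At an unadjusted p under 0.05, the count of members was 2 with array weights (G6pc and Ppargc1a) and 0 by the t-test per gene. It was 1 to 2 when a mouse was left out: Ppargc1a in place of G6pc without KO B253, Foxo1 and Igfbp1 without WT B256. Stk11 had an adjusted p of 0.5662 by the t-test per gene, with its log2 fold change of -1.637. That log2 fold change ranged from -1.714 to -1.571 with a mouse left out, the call holding only without WT B302. The count of all genes called was 0 by the t-test per gene and 0 to 1 with a mouse left out. The causes were not tested. With this number of arrays, the 95% interval of a gene's log2 fold change reached 0.319 to either side in the median over all genes. The replicate numbers follow the order of deposit and pair no mice. No paired analysis was possible because the labels pair no KO with a WT mouse.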

Other observations

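Among the genes that glucocorticoids are known to induce, Tsc22d3, which encodes the leucine zipper protein Gilz, had log2 signals of 7.15, 7.46 and 6.91 in the KO livers, against 6.61, 6.59 and 6.39 in the WT livers. All KO livers lay above all WT livers, by a fold change of 1.56 (95% interval 1.22 to 2.0, unadjusted p = 0.00284 and adjusted p = 0.9997 in limma), and the log2 difference was 0.55 within the two-hundreds and 0.8 within the three-hundreds. The other 8 measured genes of that list did not pass an unadjusted p under 0.05, and the list's median log2 fold change was 0.05.

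Of 11 measured feeding-induced genes, 10 had a log2 fold change below 0, with a median of -0.15. At an unadjusted p under 0.05, 2 were lower in KO, where 1.51% of all genes were. Thrsp, a lipogenic protein induced by feeding, had log2 signals of 8.11, 7.84 and 7.78 in the KO livers, against 8.3, 10.08 and 8.63 in the WT livers. WT B267 was far above the other livers, and the log2 fold change was -1.09 with all mice and -0.55 without it. Fasn, fatty acid synthase, had log2 signals of 6.89, 6.54 and 6.6 in the KO livers, against 7.46, 7.4 and 6.82 in the WT livers, a fold change of 0.685 (95% interval 0.51 to 0.921, adjusted p = 0.9997 in limma), and KO B253 overlapped with WT B302. With the mouse series as a block the median of the list was 0.00, and with a mouse left out it ran from -0.32 (without WT B302) to -0.05 (without WT B256).

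Of 13 measured clock genes, 0 passed an unadjusted p under 0.05, and their median log2 fold change was -0.14. With a mouse left out it ran from -0.29 (without KO B304) to -0.04 (without KO B253), and it was -0.31 within the two-hundreds against 0.05 within the three-hundreds. Of the 10 stellate cell markers, 2 were lower at an unadjusted p under 0.05, where 1.51% of all genes were. They were Lrat and Ngfr, with log2 fold changes of -0.43 and -0.29 (adjusted p = 0.9997 for both in limma). All KO livers lay below all WT livers for 3 of the 10, where 3.7% of all genes did, and with the mouse series as a block Ngfr had an unadjusted p of 0.0593 in limma.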
